A study of Mus musculus with 10 samples.

Results

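A set of 33 nuclear genes was described, which encode 15 mitochondrial aminoacyl-tRNA synthetases, the 3 subunits of the glutaminyl-tRNA amidotransferase GatCAB, and 15 factors that start, extend, end or assist translation in mitochondria. They were chosen as a named list of mouse symbols and matched to Ensembl identifiers, and all 33 were found among the 26401 genes of the count table. RNA was measured by poly(A) RNA sequencing in 10 populations of immortalized mouse embryonic fibroblasts, of which 5 carried a high and 5 a low share of a mutant mitochondrial genome (heteroplasmy). Every population carried m.5024C>T, a change in the mitochondrial alanine tRNA gene, and each was labelled C57Bl/6N, untreated and of a single cell type. All were grown in high-glucose medium with serum and uridine, an addition that lets cells with weak respiration keep making pyrimidines. No population without the mutation was compared here, and the share of mutant genomes in each was not used here. Each population has its own clone number, and the labels call the 5 in each group biological replicates; whether they came from separate embryos is not given, so the p-values measure the spread between these populations. Libraries held 17318372 to 28208576 counts, and the 33 genes together took 0.111% to 0.269% of the counts of a library.

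Mitochondria keep a translation system of their own for the few respiratory-chain proteins that mitochondrial DNA encodes. The tRNAs and ribosomal RNAs come from that DNA, whereas the enzymes that charge the tRNAs, the ribosomal proteins and the translation factors are made from nuclear genes and imported. A synthetase joins an amino acid to its tRNA, initiation factors place the formylated methionyl-tRNA on the ribosome, elongation factors deliver charged tRNAs and move the ribosome, and release and recycling factors free the finished chain and split the ribosome. The proteins are then inserted into the inner membrane, where they join the oxidative phosphorylation complexes.

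Of the 33 genes, 0 rose and 2 fell in high-heteroplasmy populations (edgeR quasi-likelihood test, Benjamini-Hochberg adjustment over 12964 genes, two-sided, threshold 0.05). The genes that fell were Cars2, the cysteinyl-tRNA synthetase, and Oxa1l, the inner membrane insertase. Over all genes tested, 1.99% rose, 2.87% fell and 4.86% were called in either direction, so a count of 2 in 33 stands near the background. At an unadjusted p under 0.05, 2 of the 33 were higher and 4 lower, and 21.6% of all genes tested reached that level in either direction. DESeq2 gave 0 that rose and 4 that fell (Cars2, Oxa1l, Lars2 and Mtrf1), against 10.2% of genes called in either direction, and limma-voom gave 0 and 2 against 5.10%. In 4 of the 33 genes the groups did not overlap, against 7.17% of all genes. The log2 fold change, high over low, was above 0 in 21 genes and below 0 in 12, with a median of 0.12, beside 0.02 over all genes tested. In bulk RNA, fewer cells of a type and less RNA per cell cannot be told apart.

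**Figure D1:**
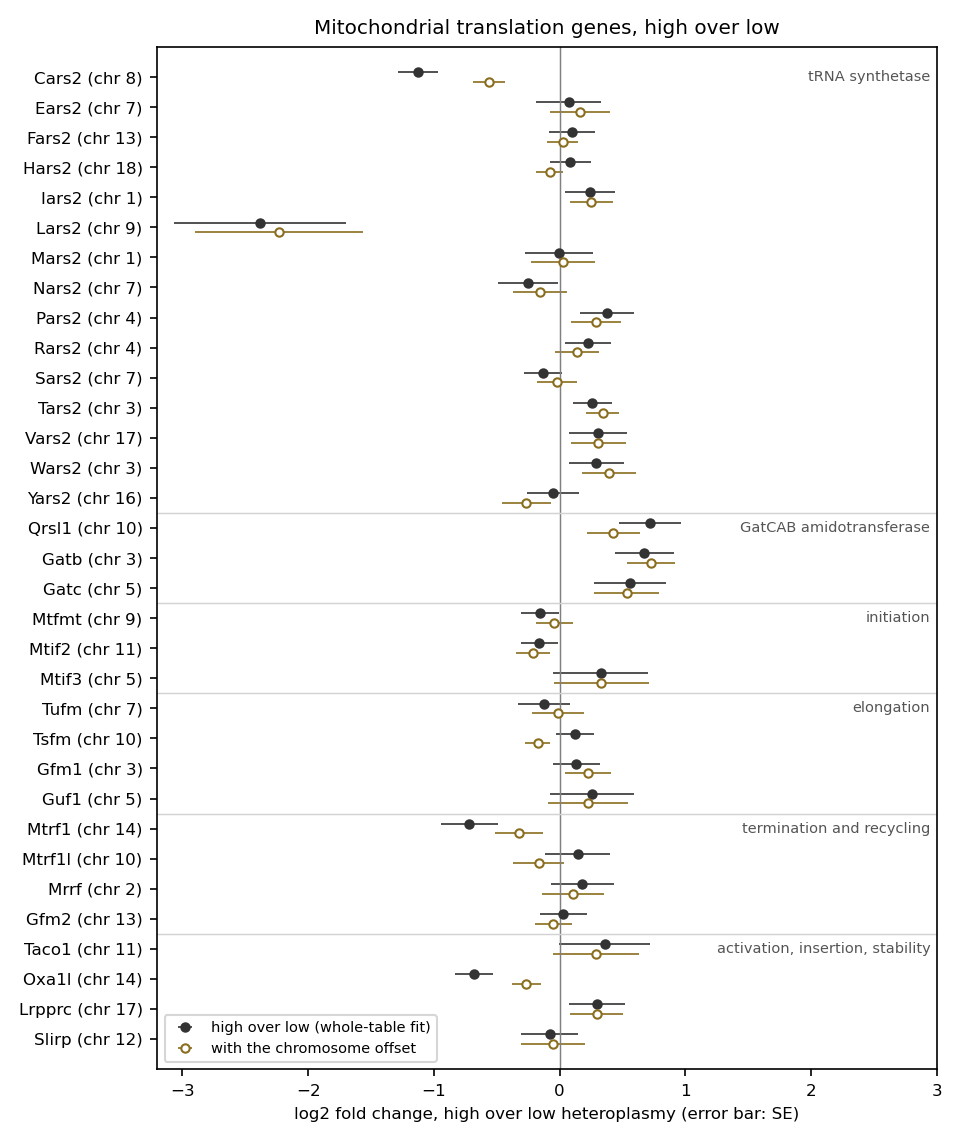
Log2 fold change (high over low, x axis) of the 33 genes, grouped by role, with bars of 1 SE from edgeR. Filled points come from the fit over the whole table and open points from the fit with an added offset for each chromosome and library; Cars2 moves to -0.56 and Oxa1l to -0.26 with the offset, while Lars2 is -2.23 with a wide bar.

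Both called genes lie on chromosomes that differed between the groups as a whole. Chromosomes 8 and 14, which hold Cars2 (chromosome 8) and Oxa1l and Mtrf1 (chromosome 14), were lower as whole chromosomes in the high group. On chromosome 8, 192 of 699 other tested genes fell (27.5%) and 0 rose, with a median log2 fold change of -0.59. On chromosome 14, 43 of 418 fell (10.29%) and 2 rose, with a median of -0.44. For each library and chromosome, a deviation was taken as the median log2 distance of the genes there from their own medians over the 10 libraries, with the 33 genes left out. The chromosome 8 deviation was -0.31 ± 0.14 in high and 0.26 ± 0.10 in low populations (SD, n = 5 each; two-sided exact permutation p = 0.00794, the smallest that the design allows, 0.0397 adjusted over 20 chromosomes). The difference for chromosome 14 was -0.39, with the same p. Chromosomes 6 (difference 0.30) and 15 (0.07), which hold 0 of the 33 genes, reached the same p in the other direction. Leaving out 1 library put the adjusted p of chromosomes 8 and 14 between 0.0529 and 0.106, in a design that then has fewer arrangements. The differences were then -0.60 to -0.49 for chromosome 8 and -0.43 to -0.33 for chromosome 14. Outside chromosomes 8 and 14, edgeR called 0 of 30 of the genes, against 391 of 11814 other tested genes (3.31%), so the 0 stands near the background. At an unadjusted p under 0.05 there were 3 of the 30, against 18.3% of the other genes. DESeq2 called 1, Lars2 on chromosome 9, against 8.77%, and limma-voom called 0, against 3.52%. Mtrf1, on chromosome 14, was called by DESeq2 and not by edgeR or limma-voom.

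With an offset for each chromosome and library added to the edgeR model, 0 of the 33 genes were called, against 1.27% of all genes. At an unadjusted p under 0.05 there were 5 (Cars2, Lars2, Tars2, Gatb and Oxa1l), against 17.7% of all genes, and limma-voom with the same offsets called 0. Groups did not overlap after the chromosome's deviation was subtracted in 3 of the 33 genes (Cars2, Lars2 and Gatb), against 5.01% of all genes. The median absolute log2 fold change was 0.24 before and 0.23 after the offset, beside 0.28 and 0.23 over all genes.

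Cars2 (ENSMUSG00000056228, a protein-coding gene at chr8:11513977-11550783 on the minus strand, GRCm38) attaches cysteine to the mitochondrial cysteine tRNA. It had 18.4, 23.7, 20.8, 32.0 and 22.6 CPM (counts per library, rescaled to equal library size) in high populations 1 to 5, against 52.0, 54.6, 51.3, 46.6 and 51.5 CPM in the low populations 1 to 5. Every high population was below every low one, and high 4 was the nearest to the low group. The means were 23.5 ± 5.17 CPM in high and 51.2 ± 2.87 CPM in low populations (SD, n = 5 each), and the log2 fold change was -1.12 (SE 0.16, edgeR adjusted p = 0.00661). Its call held with each of the 10 libraries left out in turn, and without low 2 and low 3 together it was -1.07 with an adjusted p of 0.0626.

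The Cars2 difference was smaller beside its own chromosome. With the chromosome offset its log2 fold change was -0.56 (SE 0.13, edgeR adjusted p = 0.0605), and with an offset for its 20 Mb window -0.52 (edgeR adjusted p = 0.0719). After its chromosome's deviation was subtracted, Cars2 stood at -0.73, -0.52, -0.52, -0.12 and -0.28 in high populations and at 0.15, 0.07, 0.14, 0.08 and 0.24 in low populations on the log2 scale. The adjusted p passed the threshold in 1 of the 10 fits that left out a library, the fit without high 4, with a log2 fold change of -0.66 (edgeR adjusted p = 0.0312). Of the other tested chromosome 8 genes, 10.0% had a lower log2 fold change than Cars2.

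The 9 tested genes within 1 Mb of Cars2 had a median log2 fold change of -0.64 and a range of -0.72 to -0.12, so Cars2 lay below all 9. The called one, Naxd, encodes a repair enzyme for hydrated NADH and shares 422 exon bases with Cars2 on the other strand, at 1.99 times its counts. It had 49.1, 71.1, 54.1, 62.2 and 42.2 CPM in high populations, against 100.03, 92.2, 92.1, 86.3 and 85.2 CPM in low populations. Its groups did not overlap either, with a log2 fold change of -0.71 (edgeR adjusted p = 0.0281) that became -0.15 with the chromosome offset. The kit marks strand, but no strand setting of the counting was found in the labels, so reads in the shared bases could have been assigned to either gene.

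**Figure D2:**
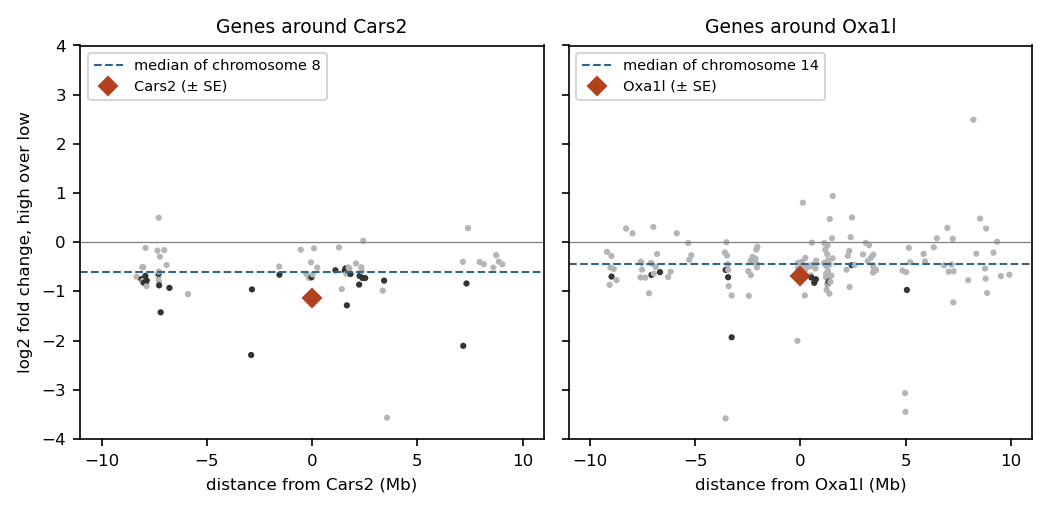
Log2 fold change (high over low, y axis) of genes within 10 Mb of Cars2 and of Oxa1l that averaged at least 1 CPM, by distance from the gene in Mb (x axis). The diamond is the named gene with its SE, dark points passed an adjusted p of 0.05 and the dashed line is the chromosome median, -0.59 for chromosome 8 and -0.44 for chromosome 14; most neighbours of both genes lie below 0.

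Lars2, which charges the mitochondrial leucine tRNAs, had 112, 89.5, 106, 106 and 85.8 CPM in high populations. In low populations it had 124, 1738, 384, 173 and 183 CPM. The groups did not overlap, and low 2 and low 3 stood far above the other 8 populations. The means were 99.8 ± 11.5 CPM in high and 521 ± 688 CPM in low populations (SD, n = 5 each), with a log2 fold change of -2.38 (SE 0.68, edgeR adjusted p = 0.0724) that did not pass the test. It was -1.10 without low 2 (edgeR adjusted p = 0.0764) and -0.67 without low 2 and low 3 (edgeR adjusted p = 0.124). DESeq2 called it (adjusted p = 0.00197) and limma-voom did not (-1.62, adjusted p = 0.143).

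The same libraries stood apart for Gm42418, a gene model on chromosome 17 that holds ribosomal RNA sequence. It had 968, 745, 952, 1154 and 793 CPM in high populations, against 1149, 40941, 8017, 1557 and 1616 CPM in low populations. The order of the low populations was thus the same for both genes, with low 2 first, low 3 next and low 1 last. A blastn search found no match at an E value of 1e-05 between annotated Lars2 transcripts and those of Gm42418, AY036118, mt-Rnr1 or mt-Rnr2. No other ribosomal RNA sequence was searched, so the search cannot show whether Lars2 holds sequence like it. The part of ribosomal RNA reads in the Lars2 values was not tested.

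**Figure D3:**
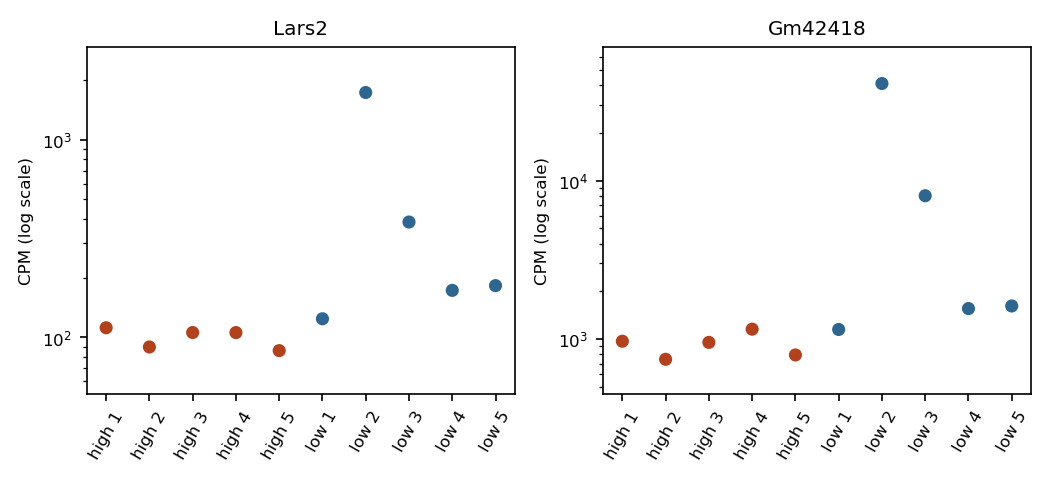
Lars2 and Gm42418 in each library (CPM, log axis; high populations left of low ones, 1 point per library). In both genes low 2 and low 3 lie above all other libraries, at 1738 and 384 CPM for Lars2 and at 40941 and 8017 CPM for Gm42418.

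The other 13 synthetases did not pass the test, with log2 fold changes between -0.25 (Nars2, asparagine) and 0.38 (Pars2, proline). Fold changes were also above 0 for Vars2 (valine, 0.31), Wars2 (tryptophan, 0.29), Tars2 (threonine, 0.26), Iars2 (isoleucine, 0.24) and Rars2 (arginine, 0.23). They were near 0 for Fars2 (phenylalanine, 0.10), Hars2 (histidine, 0.08), Ears2 (glutamate, 0.07), Mars2 (methionine, 0.00) and Yars2 (tyrosine, -0.05), and -0.13 for Sars2 (serine). The direction for Ears2, Mars2 and Yars2 turned when single libraries were left out, and that for Mars2 also under RLE and upper-quartile scaling. Summed over the class without Lars2, the synthetases had 444 ± 58.7 CPM in high and 426 ± 40.3 CPM in low populations (SD, n = 5 each).

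Tars2 was the synthetase outside Cars2 and Lars2 with the smallest p after the offset. It had 112, 81.4, 81.6, 76.3 and 98.3 CPM in high populations, against 61.7, 67.6, 76.9, 92.3 and 77.5 CPM in low populations, so the groups overlapped. Its log2 fold change was 0.26 without and 0.34 with the chromosome offset (edgeR adjusted p = 0.202). Nars2, the lowest synthetase per kilobase of exon, had 5.69, 7.95, 4.39, 5.29 and 4.66 CPM in high populations, against 6.84, 6.03, 7.50, 6.69 and 6.26 CPM in low populations. High 2 was above the low group and the other 4 high populations were below all of it.

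GatCAB makes the glutaminyl-tRNA of mitochondria, which have no glutaminyl-tRNA synthetase of their own in mammals: Ears2 first loads glutamate on the glutamine tRNA, and GatCAB turns it into glutamine. All 3 subunit genes had higher means in the high group, with none past the adjusted threshold. Qrsl1, the GatA subunit on chromosome 10, had 18.0, 20.2, 27.1, 24.5 and 29.8 CPM in high populations, against 10.5, 14.6, 9.19, 18.4 and 19.98 CPM in low populations. High 1 lay within the low group, and the other 4 high populations were above every low one. Its log2 fold change was 0.72 (SE 0.25, edgeR adjusted p = 0.115) and 0.43 with the chromosome offset (edgeR adjusted p = 0.312). The 10 tested genes within 1 Mb of Qrsl1 had a median of 0.61, with 2 of them called. The other tested genes of chromosome 10 had a median of 0.29. Within 1 Mb of Gatb and of Gatc the medians were -0.07 and 0.01.

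Gatb, the GatB subunit on chromosome 3, had 32.6, 23.8, 22.1, 12.4 and 21.4 CPM in high populations, against 16.3, 13.3, 11.1, 15.9 and 13.6 CPM in low populations. High 4 was within the low group and the other 4 high populations were above all low ones. The log2 fold change was 0.68 (SE 0.24, edgeR adjusted p = 0.124), and 0.73 with the chromosome offset (SE 0.19, edgeR adjusted p = 0.0922). Without high 4 it passed the threshold at 0.83 (edgeR adjusted p = 0.0350), and with the offset at 0.84 (edgeR adjusted p = 0.0452). Gatc, the GatC subunit on chromosome 5, had 6.81, 13.7, 15.9, 15.2 and 24.8 CPM in high populations, against 9.06, 10.0, 11.1, 10.5 and 11.2 CPM in low populations. High 1 was the lowest of all 10 populations and the other 4 high ones were above every low one (log2 fold change 0.56, SE 0.28, edgeR adjusted p = 0.282).

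Summed over the 3 subunits, the level was 57.4, 57.6, 65.1, 52.1 and 75.9 CPM in high populations, against 35.9, 37.9, 31.4, 44.9 and 44.7 CPM in low populations. The sums did not overlap, with means of 61.6 ± 9.24 CPM in high and 38.9 ± 5.81 CPM in low populations, a ratio of 1.58. The sum was formed over a trio whose fold changes were known, so it is given as a description with no test. The subunit composition differed between high populations: high 1 had the most Gatb and the least Gatc of the group, and high 4 the least Gatb.

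**Figure D4:**
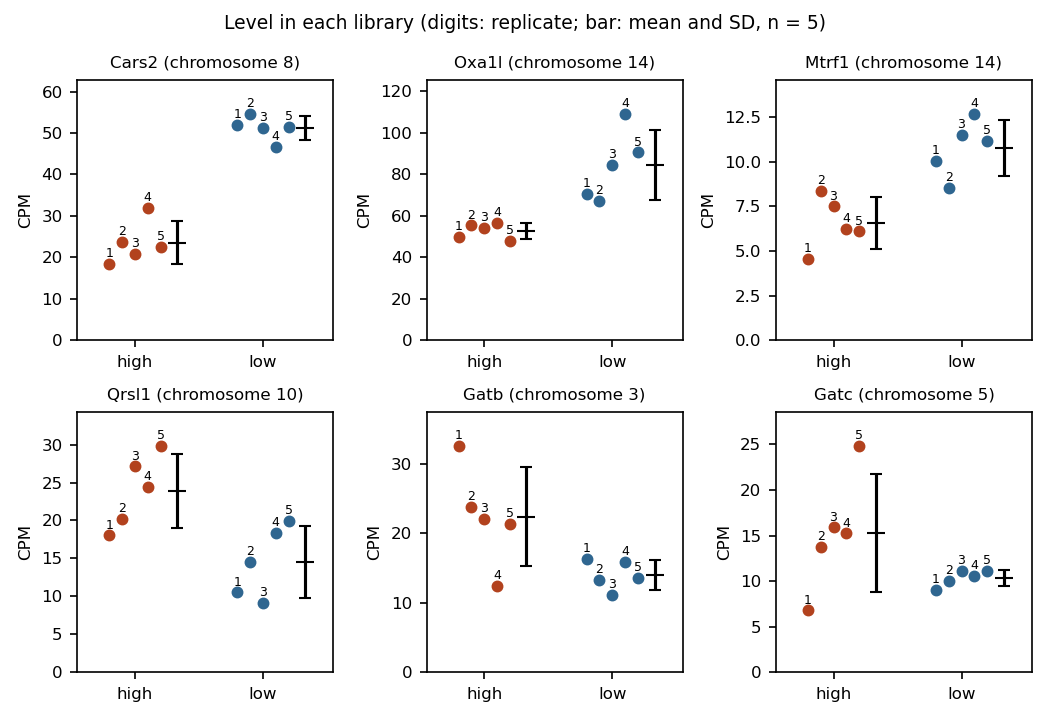
CPM of Cars2, Oxa1l, Mtrf1, Qrsl1, Gatb and Gatc in each library (high left of low; digits mark the replicate; bars are the mean ± SD, n = 5). Cars2, Oxa1l and Mtrf1 show no overlap between groups, whereas high 1 in Qrsl1, high 4 in Gatb and high 1 in Gatc lie within or below the low group.

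None of the 7 initiation and elongation genes passed the test by edgeR, DESeq2 or limma-voom, and 0 of them had an unadjusted p under 0.05. Mtfmt, which formylates the initiator methionyl-tRNA, had a log2 fold change of -0.15, and Mtif2, which places that tRNA on the small subunit, -0.16. Mtif3, which keeps the ribosomal subunits apart before initiation, was counted at 5 to 21 reads per library, the lowest level of the 33 genes. It shares 1505 of its 5127 exon bases with Gtf3a, of the opposite strand, at 162 times as many counts, so its values are uncertain. It had 0.914, 0.301, 0.530, 0.636 and 0.699 CPM in high populations, against 0.627, 0.380, 0.657, 0.502 and 0.272 CPM in low populations, and the groups overlapped.

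Tufm (elongation factor Tu), Tsfm (its exchange factor Ts) and Gfm1 (the translocase EF-G1) were, with Lars2, the highest of the 33 genes per kilobase of exon, at 24.6, 22.6, 20.4 and, for Lars2, 27.97 CPM per kb averaged over the 10 libraries. The Lars2 mean rested on low 2: without that library it was 13.7 CPM per kb, below Oxa1l (15.4) and Slirp (14.9) over all 10 libraries. In high populations Lars2 ran from 7.74 to 10.1 CPM per kb. Exon length here is the union of all annotated exons of a gene. For Lars2 it is 11089 bases, whereas its longest annotated transcript has 3894, so the order per kilobase depends on the annotation. Tufm had 28.1, 61.6, 51.0, 58.9 and 50.5 CPM in high populations, against 45.3, 45.5, 60.6, 65.2 and 55.7 CPM in low populations. High 1 was the lowest of the 10 and the rest overlapped (log2 fold change -0.12). Tsfm had 64.6, 50.5, 67.7, 79.1 and 80.3 CPM in high populations, against 60.8, 69.8, 54.3, 64.3 and 64.995 CPM in low populations, overlapping in the same way (0.12). Gfm1 had 94.7, 80.9, 100, 74.5 and 122 CPM in high populations, against 67.7, 70.2, 80.6, 107 and 105 CPM in low populations, with high 5 the highest and low 1 the lowest (0.13). The 3 elongation genes thus differed by less than the spread between populations. Guf1, a LepA-type factor that can move the ribosome backwards, had a log2 fold change of 0.26 and a 2.73-fold range over the libraries.

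Of the 4 termination and recycling genes, Mtrf1 was the lowest relative to the low group. It belongs to the release factor family and lies on chromosome 14. It had 4.57, 8.38, 7.49, 6.24 and 6.09 CPM in high populations, against 10.0, 8.53, 11.5, 12.7 and 11.2 CPM in low populations. The groups did not overlap, and high 2 and low 2 lay closest together. Its log2 fold change of -0.72 (SE 0.23, edgeR adjusted p = 0.0909) did not pass the test, passed it in DESeq2 (-0.70, adjusted p = 0.0184), and was -0.33 with the chromosome offset (edgeR adjusted p = 0.407). The 10 tested genes within 1 Mb had a median of -0.43. Mtrf1l, the main release factor, had a log2 fold change of 0.15, Mrrf, the recycling factor, 0.18, and Gfm2, the EF-G paralogue that works with it, 0.03.

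Oxa1l (ENSMUSG00000000959, at chr14:54360834-54369673 on the plus strand, GRCm38) inserts newly made mitochondrial proteins into the inner membrane. It had 49.8, 55.3, 54.0, 56.8 and 47.98 CPM in high populations, against 70.8, 67.1, 84.6, 109.15 and 90.6 CPM in low populations. The groups did not overlap, and the low populations varied more than the high ones. The means were 52.8 ± 3.73 CPM in high and 84.5 ± 16.8 CPM in low populations (SD, n = 5 each), with a log2 fold change of -0.68 (SE 0.15, edgeR adjusted p = 0.0314). With the chromosome offset it was -0.26 (SE 0.11, edgeR adjusted p = 0.259), and the 26 tested genes within 1 Mb had a median of -0.52, with 5 of them called. Low 4, the highest population, was also the one with the highest chromosome 14 deviation, 0.45.

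The Oxa1l call rested on single libraries. It was lost without high 2 (edgeR adjusted p = 0.0546), high 3 (0.0674), high 5 (0.0561), low 3 (0.0662), low 4 (0.0642) or low 5 (0.0608), and without low 2 and low 3 together (0.0925), while its log2 fold change stayed between -0.76 and -0.57. Its edgeR adjusted p was 0.0509 with no expression filter and 0.0690 with the sample code number as a block. Code number 9 was held by high 3 and high 4 and by no low library. With that block these libraries add nothing to the difference between the groups.

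Promoter sequence is shown for the pair of genes that fell, since their neighbours fell as well; the windows run from 250 bases before to 50 bases after the annotated start and are RefSeq sequence of GRCm38.p6, 5′ to 3′ on the gene's strand. Capitals mark matches to the searched motifs. Cars2 (chr8:11550722-11551021, minus strand, 59% G and C) held a reverse CCAAT box (ATTGG), and Oxa1l (chr14:54360591-54360890, plus strand, 52.3% G and C) held the NRF1 core (GCGC, 2 bases of any kind, GCGC) before the start and the YY1 motif AAGATGGCG just after it.
Cars2: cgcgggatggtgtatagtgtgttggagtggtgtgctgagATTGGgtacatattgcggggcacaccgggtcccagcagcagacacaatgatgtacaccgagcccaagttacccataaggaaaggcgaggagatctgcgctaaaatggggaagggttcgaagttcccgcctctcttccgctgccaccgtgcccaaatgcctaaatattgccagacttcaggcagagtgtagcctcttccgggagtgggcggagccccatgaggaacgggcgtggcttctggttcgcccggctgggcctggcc
Oxa1l: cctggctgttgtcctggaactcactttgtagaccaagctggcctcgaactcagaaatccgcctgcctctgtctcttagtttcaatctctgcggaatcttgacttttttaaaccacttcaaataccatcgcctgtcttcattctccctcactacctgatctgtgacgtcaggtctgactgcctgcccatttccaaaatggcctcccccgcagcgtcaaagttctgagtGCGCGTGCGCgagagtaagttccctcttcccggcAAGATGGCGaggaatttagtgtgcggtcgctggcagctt
Windows were matched for 28 of the 33 genes, with none for Hars2, Pars2, Gatb, Mtif3 and Guf1. Both strands were searched. A gene counted as holding a motif if any of its windows did. The NRF1 core, bound by an activator of nuclear genes for mitochondria, was held by 5 of 28 genes (17.9%), against 6.997% of all 27025 genes with a window. The YY1 motif was held by 4 (14.3%, against 1.64%), the ETS motif CCGGAAGT by 3 (10.7%, against 4.31%), the CCAAT box by 10 (35.7%, against 41.1%) and the E-box CACGTG by 1 (3.57%, against 8.09%). The motif TGATGCAA, of amino acid response elements, was held by 0 of the 28 genes, against 1.03% of all genes with a window. A match describes letters in the window and was not tested as a binding site. All genes with a window were counted whether or not they passed the expression filter, which the 33 genes all passed. The shares thus compare unlike sets, and their difference was not tested.

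Taco1, which activates translation of the cytochrome oxidase subunit COX1, had the widest range after Lars2, with a 3.76-fold difference between its highest and lowest library. It had 8.64, 18.3, 10.0, 13.9 and 28.6 CPM in high populations, against 9.74, 10.4, 7.599, 20.5 and 13.7 CPM in low populations, and the groups overlapped (log2 fold change 0.36, SE 0.36, edgeR adjusted p = 0.620). High 5 and low 4 were the highest of their groups.

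Lrpprc binds mitochondrial mRNAs and keeps them stable and polyadenylated, together with its small partner Slirp. Lrpprc had 77.1, 141, 83.2, 104 and 158 CPM in high populations, against 83.1, 79.7, 73.8, 113 and 108 CPM in low populations (log2 fold change 0.30, edgeR adjusted p = 0.480). Slirp had 69.0, 32.8, 48.5, 45.5 and 29.5 CPM in high populations, against 51.3, 35.0, 48.1, 56.5 and 47.0 CPM in low populations (-0.08, edgeR adjusted p = 0.889). The pair was not balanced between high populations: high 1 had the least Lrpprc and the most Slirp, and high 5 the reverse. Per kilobase of exon, Lrpprc was 0.408, 1.57, 0.626, 0.831 and 1.95 times Slirp in high populations, against 0.591, 0.830, 0.560, 0.732 and 0.839 times in low populations. The log2 ratio was -0.12 ± 0.93 in high and -0.51 ± 0.27 in low populations (SD, n = 5 each; difference 0.39, two-sided exact permutation p = 0.365). Slirp shares 2914 of its 3104 exon bases with Snw1, on the opposite strand, and Snw1 had 2.36 times as many counts. The Slirp level and the ratios of Lrpprc to Slirp are therefore uncertain.

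Clone by clone, several genes followed the deviation of their chromosome within a group, and others did not. The chromosome 10 deviation in the high populations was 0.00, -0.12, 0.22, 0.34 and 0.42, and Qrsl1, Tsfm and Mtrf1l on that chromosome were all higher in high 3, 4 and 5 than in high 1 and 2. On chromosome 3 it was 0.44, -0.32, -0.04, -0.36 and 0.03, with the most Gatb and Tars2 in high 1 and the least in high 4. The other genes there followed it less closely: Gfm1 and Wars2 were highest in high 5, and the SD over the libraries grew once the deviation was subtracted in Gfm1 (0.29 to 0.31), Wars2 (0.33 to 0.35) and, slightly, Tars2. On chromosome 13 it was lowest in high 1 (-0.30) and low 1 (-0.19), which had the least Fars2 of their groups, 22.1 CPM in high 1 and 21.8 CPM in low 1. On chromosome 7 it was -0.45 in high 5. There Ears2, Sars2 and Tufm stood at -0.03, -0.10 and -0.08 from their own medians, and Nars2 at -0.39. Subtracting the deviation raised the SD of Sars2 (0.19 to 0.22) and Tufm (0.351 to 0.354). It lowered that of Nars2 (0.28 to 0.23) and Ears2 (0.349 to 0.344). The SD of log2 CPM over the 10 libraries became smaller once the deviation was subtracted in Fars2 (0.27 to 0.15), Hars2 (0.23 to 0.10), Oxa1l (0.40 to 0.20), Mtrf1 (0.46 to 0.26) and Cars2 (0.64 to 0.34). It became smaller in 23 of the 33 genes (69.7%), beside 68.3% of the other tested genes, so in this the 33 genes stood near the rest of the table. The median SD was 0.35 before and 0.34 after in the 33 genes, and 0.40 and 0.36 over all genes.

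**Figure D5:**
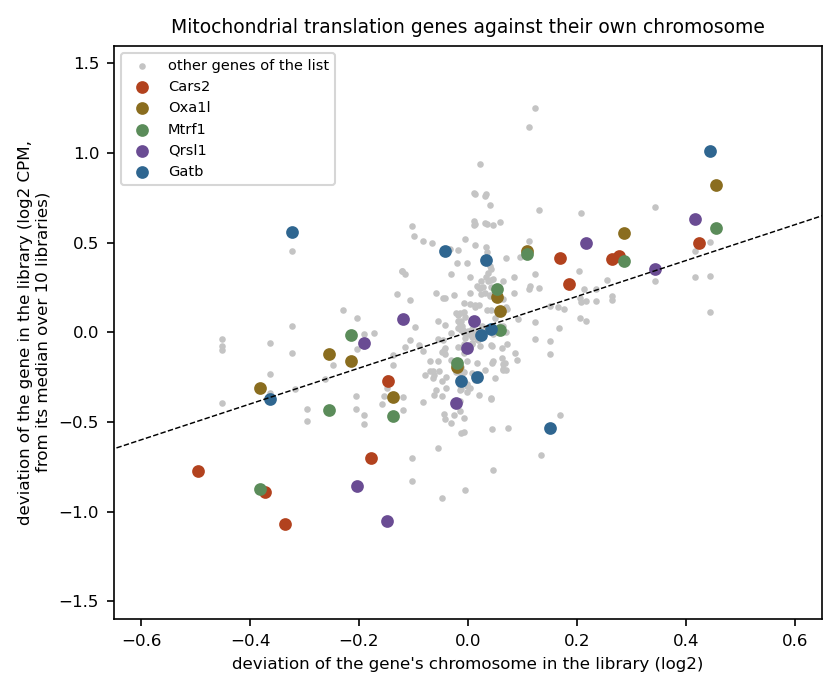
Each gene's log2 deviation in a library (y axis) against the deviation of its chromosome in that library (x axis), with 1 point per gene and library, 5 genes in colour and Lars2 left out. The dashed line marks equality; the points of Cars2, Oxa1l and Mtrf1 with a chromosome deviation below 0 are those of the high populations, and the Cars2 points among them lie below the line.

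Of 147 other tested genes of tRNA charging and mitochondrial translation, 0 rose and 5 fell by edgeR (3.4%, against 2.87% of all genes, so near the background), and an unadjusted p under 0.05 was reached by 4 with a positive fold change. DESeq2 gave 1 that rose and 7 that fell, and limma-voom 0 and 5. By edgeR, 5 of the 10 tested genes on chromosome 8 fell, where 27.5% of all genes fell, and 0 of 4 on chromosome 14 and 0 of 133 elsewhere. The 7 that fell by DESeq2 were 6 on chromosome 8 and 1 on chromosome 14, and the 1 that rose lies elsewhere. Those that fell by edgeR were Trmt1 (-0.73, edgeR adjusted p = 0.0308), a tRNA guanine methyltransferase; Gtpbp3 (-0.70, 0.0428), which modifies mitochondrial tRNA wobble uridines; Ddx28 (-0.87, 0.0226), a helicase of mitoribosome assembly; Farsa (-0.77, 0.0212), the cytosolic phenylalanyl-tRNA synthetase alpha subunit; and Mrps31 (-0.76, 0.0226), a protein of the small mitoribosomal subunit. With the chromosome offset their log2 fold changes lay between -0.31 and -0.12, and 0 of the 147 were called by edgeR, with 2 at an unadjusted p under 0.05. By list, 2 of 23 genes of tRNA processing and modification fell (median log2 fold change 0.04) and 1 of 20 other translation factors (0.01). Of 23 genes of cytosolic synthetases and their accessory proteins 1 fell (-0.02), and 1 of 82 mitoribosomal proteins (0.00). Mrpl58 was the 1 gene on 2 of the lists.

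The fibroblast label was checked against marker genes. Of 8 fibroblast markers, 7 passed the filter and 0 were called, and their summed level ran from 8420 to 18170 CPM in high and from 10537 to 12197 CPM in low populations. Dcn was near 0, at 0.172 CPM in high and 2.00 CPM in low populations on average. Of 17 markers of other cell types, 10 passed the filter, 1 rose and 1 fell (Tubb3, on chromosome 8), and Cdh5, Ptprc, Sox10 and Actc1 were at 0 in all libraries. Their summed level ran from 232 to 617 CPM in high and from 566 to 766 CPM in low populations. The median log2 fold change of the 10 tested was -0.13. Krt18, an epithelial keratin, was the one that rose, with 294, 27.2, 2.27, 88.4 and 182 CPM in high populations, against 0.570, 0.598, 0.516, 0.377 and 0.327 CPM in low populations. Its level differed widely between high populations, and its log2 fold change was 7.95 (edgeR adjusted p = 0.00895) and 7.86 with the chromosome offset (edgeR adjusted p = 0.0148). The list also held the epithelial markers Epcam, Cdh1, Krt8 and Krt19, none of which was called. The part of these differences in the values of the 33 genes was not tested.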

How the data were processed

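Poly(A) RNA was sequenced as paired 50 bp reads with a stranded kit, per the labels' protocols. GRCm38, STAR 2.7.8a, R 4.2.1 and DESeq2 1.36.0 are named, without roles, per the submitters' processing notes. No source used here gives the counter, its strand setting or its annotation. The deposited tables hold raw counts per Ensembl gene and, as a signal the authors made, the same counts divided by 1 size factor per library (checked); only the counts were tested. Gene symbols, coordinates and exon lengths (the union of a gene's exons over all its transcripts) came from GENCODE M21, which left 195 of 26401 identifiers without a name. Genes passed the default filter by group (12964 genes), and edgeR 4.0.16 (R 4.3.3) ran robust quasi-likelihood tests with TMM scaling, group as the only term and a two-sided adjusted threshold of 0.05; SE is the log2 fold change over the root of F. The chromosome offset is each library's median deviation over a chromosome's genes with a mean log2 CPM above 3 (prior count 2), with the 33 genes left out. DESeq2 1.42.0 and limma 3.58.1 were alternatives, as were other scalings, filters, blocks and libraries left out. The code was tested on simulated data. The 33 genes and all lists were chosen with earlier results of these data known. Values in every library are given for genes called or at an unadjusted p under 0.05, with or without the offset, for the 4 highest and 2 lowest per kilobase, for genes with a library far from its group, and for Lrpprc and Slirp; Gatc, Taco1 and Gm42418 were added after their values were seen. Count totals set the precision, and low genes such as Mtif3 are the least precise.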

Additional observations from a re-analysis of the deposited data

Results flagged for a closer look

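In the low group, Lars2 stood at 1738 CPM in low 2, and the nearest of the other 4 libraries was low 3 at 384 CPM. The gap was 0.839 of the group's whole range, above the critical value of 0.71 for 5 samples. This was the single such case in 66 groups of 5 (33 genes in 2 groups). Chance alone passes about 1 in 20 groups, so 1 case in 66 does not exceed that rate. Gm42418, at 40941 CPM, was also highest in low 2.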

How the results depend on the processing

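Cars2 was called under every scaling, filter and block and by each tool, with the exception given for low 2 and low 3. The count of the 33 genes that fell (2) was 1 with no filter, 1 with the code-number block, 4 by DESeq2, and 0 without low 2 and low 3, a choice made after seeing the data. Over all genes (258 rose, 372 fell), DESeq2 gave 733 and 907, and leaving out that pair gave 14 and 42. With 1 library left out, 1 to 2 of the 33 fell and 0 to 1 rose (Gatb, without high 4), 82 to 339 of all genes rose and 150 to 492 fell, and after the chromosome offset 0 to 2 of the 33 were called (Cars2 and Gatb, without high 4). The chromosome 8 and 14 differences were -0.57 and -0.39 with RLE scaling and -0.58 and -0.42 as a trimmed mean, each with an adjusted p of 0.0529, and -0.60 to -0.49 and -0.43 to -0.33 with 1 library left out.

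Same-numbered replicates correlated at 0.455, -0.053, 0.033, 0.074 and 0.160. The best match had the same number for replicates 1 and 5 and not for replicates 2, 3 and 4. The numbers were therefore not taken as pairs in the main fit. With the replicate block 2 of the 33 fell and 194 of all genes rose and 383 fell; after the offset the block called 0.

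Directions turned for genes near 0. Mars2 (0.00) was 0.00394 with RLE, 0.017 with upper-quartile scaling, 0.017 with no filter, 0.0707 with the code-number block, 0.011 by DESeq2, 0.013 by limma-voom and, after the offset without low 2 and low 3, -0.14. Mtrf1l was -0.0744 with the code-number block. Without low 2 and low 3, Hars2 was -0.0217, Mtrf1l -0.0176 and Gfm2 -0.0202. With 1 library left out the ranges were -0.10 to 0.17 (Ears2), -0.10 to 0.20 (Mars2), -0.16 to 0.0694 (Yars2), -0.20 to 0.0298 (Tufm), -0.0112 to 0.33 (Mtrf1l), -0.0801 to 0.31 (Mrrf), -0.0639 to 0.13 (Gfm2) and -0.28 to 0.0336 (Slirp). After the offset they were -0.0547 to 0.0631 (Fars2), -0.11 to 0.15 (Mars2), -0.12 to 0.0439 (Sars2), -0.11 to 0.0268 (Mtfmt), -0.12 to 0.14 (Tufm), -0.15 to 0.25 (Mrrf), -0.11 to 0.0689 (Gfm2) and -0.28 to 0.0899 (Slirp). The cause of these changes was not tested.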

Other observations

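Single populations held the extremes of many of the 33 genes. High 5 had the highest value of the 10 libraries in 9 genes (27.3%), beside 14.1% of all tested genes, and high 1 the lowest in 8 genes (24.2%), beside 15.8%. In the low group, low 4 had the highest value in 6 genes (18.2%, beside 10.28%) and the lowest in 0, and low 1 had the lowest in 6 (18.2%, beside 7.03%). These shares are descriptions of the libraries with no test.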
